A study of Mus musculus with 8 samples.

Results

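The genes described here are 10 genes of insulin and insulin-like growth factor (IGF) signalling: Igf1, Igf2, Igfbp5, Insr, Igf1r, Irs1, Irs2, Pik3r1, Akt1 and Akt2. Their members were all regions of the deposited accessibility table that carry these gene names, 519 of 489637 regions, with 10 of the 27552 genes named in the table. The assay was ATAC-seq, which uses a transposase to cut and tag open chromatin, on gastrocnemius, a calf muscle, of 6-month mice. There were 4 Vehicle and 4 iMSBmal1KO libraries, and the mice of both groups carried the genotype Cre+:iMSBmal1 fl/fl, that is, Cre together with floxed Bmal1. The Vehicle group received vehicle and the iMSBmal1KO group received tamoxifen, so the effect of tamoxifen itself and that of the Bmal1 knockout cannot be told apart. Each nuclear preparation used a pair of whole gastrocnemius muscles. The labels do not give the promoter that drives Cre, the time of day of collection, or whether each library came from a separate animal. P-values therefore measure the spread between these libraries, which may be technical.

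Insulin, IGF-1 and IGF-2 bind the receptor tyrosine kinases encoded by Insr and Igf1r. The active receptors phosphorylate the adaptor proteins IRS1 and IRS2, which recruit phosphoinositide 3-kinase through its regulatory subunit p85, and the lipid it makes leads to activation of the kinases AKT1 and AKT2. In skeletal muscle this pathway drives glucose uptake, glycogen synthesis and protein synthesis, and IGF binding proteins such as that encoded by Igfbp5 set how much IGF reaches the receptor. BMAL1, encoded by the gene that the knockout targets, is the clock transcription factor that pairs with CLOCK and binds the E-box CACGTG.

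Promoter sequences of 9 of the 10 genes were found in the RefSeq table of GRCm38.p6. Windows of the 250 bases before the annotated start are shown for the pair of adaptor genes that hold an E-box, Irs1 and Irs2, and for a receptor and a ligand gene without it, Igf1r and Igf1. They run 5′ to 3′ on the strand of the gene, and capitals mark CACGTG. The Irs1 window is chr1:82291440-82291689 on the minus strand, the Irs2 window chr8:11008930-11009179 on the minus strand, the Igf1r window chr7:67952007-67952256 on the plus strand and the Igf1 window chr10:87860861-87861110 on the plus strand.
Irs1: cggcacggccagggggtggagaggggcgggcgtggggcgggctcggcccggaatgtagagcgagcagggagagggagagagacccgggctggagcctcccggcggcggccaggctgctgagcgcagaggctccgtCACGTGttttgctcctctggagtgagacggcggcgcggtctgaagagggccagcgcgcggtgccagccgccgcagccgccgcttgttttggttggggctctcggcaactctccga
Irs2: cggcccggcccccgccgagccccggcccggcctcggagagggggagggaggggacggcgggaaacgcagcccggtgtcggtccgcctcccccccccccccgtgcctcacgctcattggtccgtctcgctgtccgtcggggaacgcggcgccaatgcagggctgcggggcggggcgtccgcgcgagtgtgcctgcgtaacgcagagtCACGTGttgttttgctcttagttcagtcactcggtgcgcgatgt
Igf1r: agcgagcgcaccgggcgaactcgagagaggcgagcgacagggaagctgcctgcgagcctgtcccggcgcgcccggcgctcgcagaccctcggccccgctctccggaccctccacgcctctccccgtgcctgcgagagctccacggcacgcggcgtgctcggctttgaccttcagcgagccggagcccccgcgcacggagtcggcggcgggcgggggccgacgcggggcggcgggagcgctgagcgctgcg
Igf1: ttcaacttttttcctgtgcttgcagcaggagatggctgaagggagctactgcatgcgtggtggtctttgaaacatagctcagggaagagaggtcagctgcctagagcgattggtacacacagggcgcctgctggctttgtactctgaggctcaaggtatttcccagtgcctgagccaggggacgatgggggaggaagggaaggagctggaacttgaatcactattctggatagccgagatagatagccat

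The E-box began 115 bases before the start of Irs1 and 44 bases before the start of Irs2. CACGTG, which reads the same on both strands, was present in 6.02% of all 32851 promoter windows of this length in the table. The motif GGGCGG or its reverse complement CCGCCC, with no match that overlapped an E-box in these windows, was counted 2 times in Irs1, 1 time in Irs2, 2 times in Igf1r and not in Igf1, and 32.7% of all windows held it. TATAAA on either strand was in none of these 4 windows and in 12.4% of all windows. GC content was 72.4% in Irs1, 72.8% in Irs2 and 77.6% in Igf1r, against an upper quartile of 61.2% over all windows. The Igf1 window, with a GC content of 52.8% and 5 CpG dinucleotides, lay close to the medians of all windows, 52.4% and 6. A match is a description of the letters and not evidence of binding.

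Depth was between 4.31 and 19.7 M read equivalents in Vehicle and between 11.2 and 29.5 M in iMSBmal1KO libraries (1 M is 1000000 reads). Vehicle replicate 4 was the shallowest library and had 16.5% mitochondrial reads, against 1.11% to 5.51% in the other 7 libraries. The targeted gene, listed as Arntl, had a summed signal of 2688, 2248, 2557 and 1942 in Vehicle and 3023, 3421, 3154 and 3315 in iMSBmal1KO libraries. Those groups did not overlap, as at 4.94% of all gene sums, with a log2 difference of 0.46 ± 0.14 (SE; limma adjusted p = 0.374). Of its 37 tested regions 34 had a positive log2 difference, where 62.0% of all tested regions did. The limma adjusted threshold was passed by 1 of them, as higher in iMSBmal1KO, where 0.0881% of all tested regions passed. The labels do not say which part of Bmal1 is deleted, so a sum over its 82 regions does not check the deletion. Promoters of all 7 muscle fibre markers were accessible, with a summed signal of 7207 to 11903 in Vehicle and 8736 to 10501 in iMSBmal1KO libraries. The 4 fibro-adipogenic markers summed to 386 to 596 and 429 to 600, the 4 endothelial markers to 80.1 to 116 and 86.6 to 122, and of the 4 macrophage markers only Csf1r had a promoter region, at 3.13 to 6.69. Markers of T cells, neutrophils and red cells had no promoter region in the table. In such bulk tissue, fewer cells of a type and less accessibility per cell cannot be told apart.

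The question put to these data was whether the insulin and IGF genes differ in accessibility between the groups. No difference passed the test at any of them. Of the 519 regions, 188 passed the filter on low signal, in 9 genes, and 0 of these 188 had a limma adjusted p (Benjamini-Hochberg over all 124901 tested regions) under 0.05, where 0.0881% of all tested regions did. The smallest adjusted p was 0.411, and 13 of the 188 had an unadjusted p under 0.05, which is 7 higher and 6 lower in iMSBmal1KO, where 9.22% of all tested regions did. Voom in place of the trend also called 0 regions. The log2 differences (iMSBmal1KO minus Vehicle, on log2 of signal plus 1) had a median of 0.11 at the members against 0.12 over all tested regions, and 119 were positive and 69 negative, against 62.0% and 38.0% of all tested regions. The groups did not overlap at 4 regions that were higher in iMSBmal1KO (background 3.62%) and 6 that were lower (background 1.87%).

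When the signal of all regions of a gene was summed, 0 of the 10 genes passed, where 0.13% of 22224 genes did, and 1 of the 10 had an unadjusted p under 0.05, where 9.48% of all genes did. The groups overlapped in all 10 gene sums, whereas 4.94% of all gene sums had groups that did not. The sum over regions within 1000 bases of an annotated start gave 0 of 10 as well, where 0.079% of 17720 genes passed. Of these 10 promoter sums 1 had an unadjusted p under 0.05 and 0 had groups that did not overlap, where 10.1% and 4.49% of all promoter sums did. The SE of the gene sums was from 0.129 to 0.638, so the precision differed greatly between the genes. The median of all gene sums was itself 0.11, and of all promoter sums 0.15. These shifts of all genes were -0.01 and -0.00 when factors were recomputed by median of ratios, and under that scaling the small positive differences of Insr, Igf1r, Irs2, Pik3r1 and Akt2 in the gene sums turned negative.

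**Figure D1:**
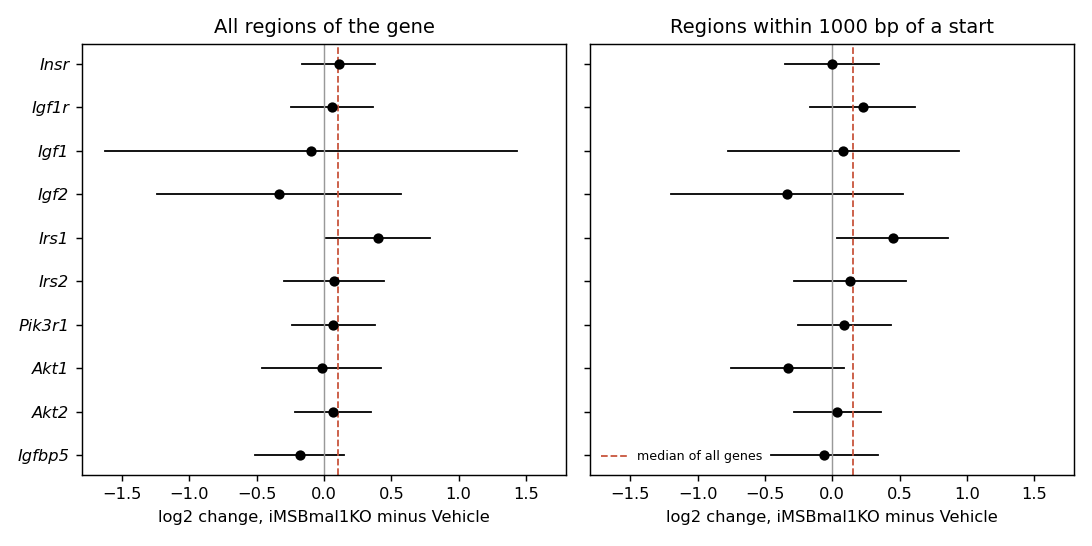
Log2 difference (iMSBmal1KO minus Vehicle) with 95% confidence interval for the gene sums and the promoter sums of the 10 genes, n = 4 libraries per group, with the median of all genes as a dashed line. Of the intervals, only those of Irs1 lie clear of 0, and no gene passed the adjusted threshold.

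The promoters differed widely in level. Signal per kb of promoter region in the Vehicle libraries was highest at Irs2, 938 ± 266 (SD, n = 4), followed by Irs1 at 678 ± 219, Akt2 at 671 ± 84.5 and Insr at 595 ± 83.2. A second level held Igfbp5 at 359 ± 85.8, Igf1r at 346 ± 59.4 and Pik3r1 at 335 ± 51.5. The ranges of neighbouring genes overlapped within each of these levels. Within libraries, Irs2 lay above Irs1 in 4 of 4 Vehicle libraries, Akt2 above Insr in 3 of 4, Igf1r above Pik3r1 in 3 of 4, and Irs1 above Akt2 and Igfbp5 above Igf1r in 2 of 4. Akt1 followed at 126 ± 13.3. The ligand genes were lowest, Igf1 at 62.9 ± 25.6 and Igf2 at 52.1 ± 31.6, and Igf1 lay above Igf2 in 2 of 4 libraries. Irs2 stood at the percentile 94.6 of genes with a promoter region, and Igf2 at 26.8. This order is per kb, and the promoter regions covered 3.27 kb at Pik3r1 but 0.741 kb at Irs2. By the promoter sum in Vehicle, Akt2 was highest at 2278, then Pik3r1 at 1097, Insr at 882, Irs1 at 809 and Irs2 at 695. The receptors, adaptors, Akt2, Pik3r1 and Igfbp5 were thus in open promoter chromatin in the muscle preparations of both groups. Both growth factor genes were in the lower part of the range, and Akt1 lay between.

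**Figure D2:**
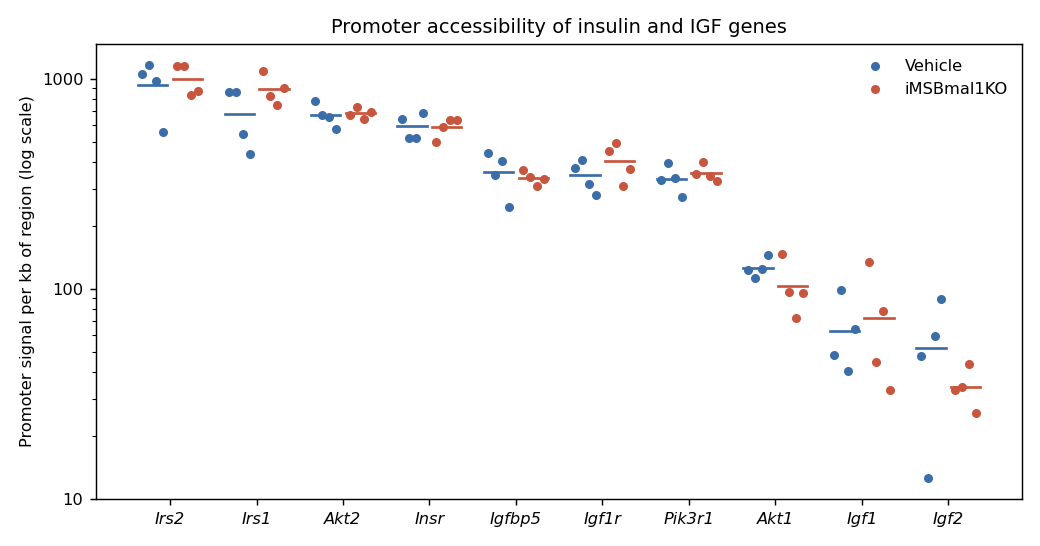
Promoter signal per kb of region (log axis) of the 10 genes in each of the 8 libraries, ordered by the Vehicle mean. The genes span from 938 at Irs2 to 52.1 at Igf2, and the points of the groups overlap at every gene (bars, group means).

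Igf1 encodes the growth factor that muscle makes for local use besides the circulating supply from the liver. Its gene sum was 528, 765, 222 and 460 in Vehicle and 1240, 275, 410 and 225 in iMSBmal1KO libraries. The highest and one of the lowest values were in the same group, and the log2 difference of -0.10 had a 95% confidence interval from -1.63 to 1.44 (SE 0.64; limma adjusted p = 0.968). Of its 45 regions 9 were tested, none within 1000 bases of a start. The promoter made up 11.2% of the signal, and most of the rest lay in intron 3.

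Intron 3 of Igf1 held the 2 regions with the widest spread within groups among the 45 member regions with a mean signal of at least 50. The region chr10:87885814-87886108 had a signal of 134, 140, 30.5 and 68.8 in Vehicle and 339, 36.0, 88.3 and 22.6 in iMSBmal1KO libraries. The region chr10:87902035-87902235, also in intron 3, had 146, 196, 26.7 and 134 in Vehicle and 224, 54.4, 66.8 and 27.6 in iMSBmal1KO. In both regions iMSBmal1KO replicate 1 was highest and Vehicle replicate 3 and iMSBmal1KO replicate 4 were the lowest of the 8, and the highest library of the first was 15.01-fold above the lowest. The SD within groups was 1.40 and 1.26 on the log2 scale, at the percentiles 99.97 and 99.89 of the 29972 regions with a mean signal of at least 50, whose median SD was 0.31. iMSBmal1KO replicate 1 was also the deepest library, and the part of depth in this spread was not tested. Vehicle replicate 3, among the lowest, was the second deepest at 19.7 M.

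**Figure D3:**
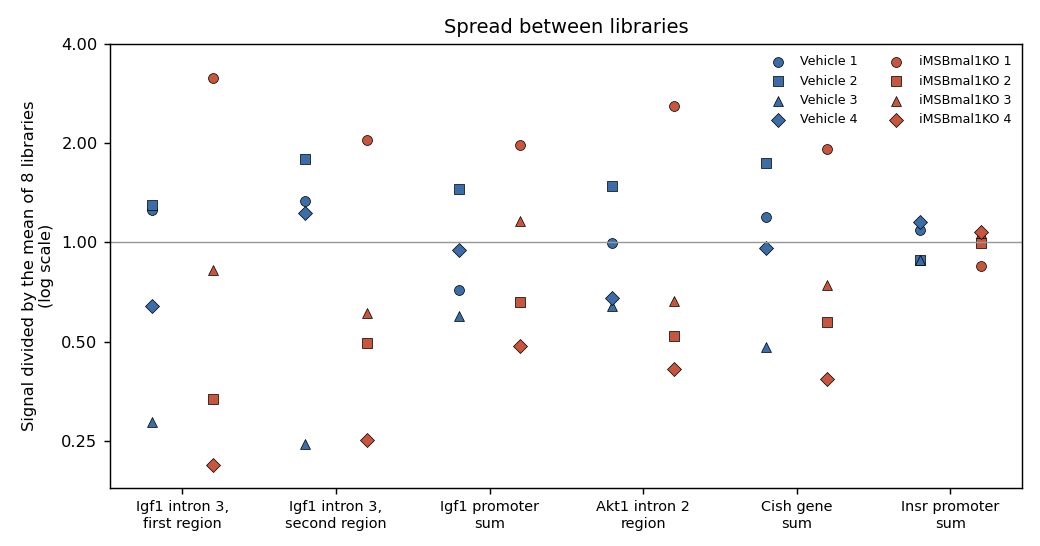
Signal of each library divided by the mean of the 8 libraries (log axis) for a pair of Igf1 intron 3 regions (chr10:87885814-87886108 first), the Igf1 promoter sum, the Akt1 intron 2 region, the gene sum of Cish (a SOCS family gene whose sum followed that of Igf1) and the Insr promoter sum. At both Igf1 intron 3 regions iMSBmal1KO replicate 1 lies highest, and iMSBmal1KO replicate 4 and Vehicle replicate 3 lie lowest.

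Igf2, the growth factor of fetal tissue, had 4 regions, and none passed the filter. Its summed signal was 23.5, 6.16, 29.2 and 43.8 in Vehicle and 16.3, 16.7, 21.5 and 12.5 in iMSBmal1KO libraries. The groups overlapped, and the difference of -0.34 (SE 0.43; limma adjusted p = 0.783) was 0.00 without Vehicle replicate 4 and -0.88 without Vehicle replicate 2 (limma adjusted p = 0.186), so single libraries decided its size.

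Igfbp5 encodes a binding protein that holds IGFs in the matrix around muscle cells. Of its 11 tested regions 9 had a negative log2 difference, where 38.0% of all tested regions did, and the median was -0.22. In intron 1, 3 regions had lower values in every iMSBmal1KO library than in any Vehicle library, where 1.87% of all tested regions did. The regions share a gene and their libraries, so neighbours are not independent. At chr1:72867605-72867707 the signal was 15.99, 16.4, 31.1 and 18.8 in Vehicle and 12.4, 5.85, 7.16 and 10.0 in iMSBmal1KO libraries, a log2 difference of -1.13 ± 0.36 (SE; limma adjusted p = 0.411). This was the smallest p among the members, at a region with only 6 to 49 reads per library.

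At chr1:72871810-72871944 the signal was 28.8, 31.9, 29.2 and 46.9 in Vehicle and 25.3, 15.9, 13.1 and 18.8 in iMSBmal1KO libraries, a log2 difference of -0.88 ± 0.31 (limma adjusted p = 0.445). At chr1:72866061-72866208 it was 28.8, 27.7, 20.3 and 25.01 against 15.4, 17.6, 9.54 and 13.8, a log2 difference of -0.83 ± 0.31 (limma adjusted p = 0.482). The groups were apart in both. The strongest promoter region, chr1:72874971-72875174, had 159, 134, 160 and 71.9 in Vehicle and 104, 108, 83.5 and 112 in iMSBmal1KO libraries, with a log2 difference of -0.31 ± 0.25 (limma adjusted p = 0.695). Vehicle replicate 4 was the lowest of the 8 there, and the groups overlapped. The strongest region of intron 1, chr1:72867405-72867604, which abuts the first of these, had 140 ± 37.1 in Vehicle and 131 ± 11.3 in iMSBmal1KO. The gene sum was 748 ± 130 and 653 ± 47.3 (SD, n = 4 each), a log2 difference of -0.18 (95% interval -0.51 to 0.15; limma adjusted p = 0.674), and the promoter sum differed by -0.06. With median of ratios these were -0.29 and -0.21, with loess -0.32 and -0.29, and without Vehicle replicate 4 -0.31 and -0.23. The gene sum was -0.12 without Vehicle replicate 1, and the promoter sum was then 0.05.

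The gene sums of the receptors differed little between the groups. Insr, the insulin receptor, had a gene sum of 2801, 2499, 2303 and 2314 in Vehicle and 2477, 2813, 2587 and 2790 in iMSBmal1KO libraries. The groups overlapped, and the log2 difference was 0.11 (95% interval -0.16 to 0.38; limma adjusted p = 0.766). This was the most precise gene sum of the 10. The Insr promoter region chr8:3279097-3279809 had 892, 717, 690 and 951 in Vehicle and 684, 804, 870 and 857 in iMSBmal1KO libraries, a log2 difference of -0.01 ± 0.18. The promoter held 35.6% of the Insr signal. Strong regions lay far inside the gene, at chr8:3187488-3187857 in intron 9, with 378 ± 93.9 and 415 ± 31.6, and at chr8:3220931-3221451 in intron 2, with 281 ± 92.8 and 363 ± 56.6. The Insr region with the smallest p, chr8:3145644-3145886, had 22.4, 11.3, 19.1 and 21.9 in Vehicle and 5.99, 9.20, 11.9 and 7.53 in iMSBmal1KO libraries. All but the highest iMSBmal1KO library lay below every Vehicle library, with a log2 difference of -1.02 ± 0.37 (limma adjusted p = 0.464). In intron 1, a region at chr8:3261919-3262041 was lower in every iMSBmal1KO library, with a log2 difference of -0.71, and a region less than 1000 bases away at chr8:3262389-3262515 was higher in every one, with 0.93. Their limma adjusted p-values were 0.519 and 0.527.

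Igf1r, the IGF-1 receptor, had the most regions of the 10 genes, 124, of which 34 were tested. Its gene sum was 3021, 3048, 2389 and 2192 in Vehicle and 2819, 3104, 2336 and 2805 in iMSBmal1KO libraries, a log2 difference of 0.06 (SE 0.15; limma adjusted p = 0.892). Only 13.5% of that signal was at promoters. The strongest tested region of Igf1r was not at its promoter: chr7:68215583-68216094 in intron 2 had 1017, 902, 612 and 550 in Vehicle and 739, 814, 683 and 834 in iMSBmal1KO libraries. The groups overlapped and their means, 770 and 768, were nearly equal. The strongest promoter region, chr7:67951718-67952056, had 267 ± 59.9 and 323 ± 75.4. Abutting the strong intron region was chr7:68216095-68216203, with 28.8, 26.7, 21.6 and 28.1 in Vehicle and 11.98, 13.4, 11.9 and 20.1 in iMSBmal1KO libraries. The groups were apart at that flank, with a log2 difference of -0.85 ± 0.31 (limma adjusted p = 0.465). The most positive region of all members was also in Igf1r, chr7:68122584-68122749, with a log2 difference of 1.31 ± 0.53 (limma adjusted p = 0.502) on 1 to 30 reads per library.

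Among the adaptors, Irs1 had the largest differences of gene sum and promoter sum. IRS1 is a main adaptor of insulin signalling in muscle. Its gene sum was 2509, 2535, 1738 and 1460 in Vehicle and 3577, 2318, 2220 and 2667 in iMSBmal1KO libraries. The groups overlapped, since Vehicle replicates 1 and 2 lay above iMSBmal1KO replicates 2 and 3. The log2 difference was 0.40 ± 0.19 (SE; 95% interval 0.01 to 0.79), and it did not pass (limma adjusted p = 0.517). It was 0.25 without Vehicle replicate 4, the shallowest library, and 0.26 without iMSBmal1KO replicate 1, the deepest. Vehicle replicate 3, also low at 1738, was the second deepest library at 19.7 M. The part of depth in the Irs1 difference was not tested.

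The Irs1 promoter region, chr1:82291007-82291654, which holds the whole window with the E-box shown above together with an abutting region, had 776, 781, 466 and 378 in Vehicle and 932, 758, 658 and 800 in iMSBmal1KO libraries. Vehicle replicates 3 and 4 were low, and the others overlapped. The log2 difference of the region was 0.45 ± 0.22 (limma adjusted p = 0.553), and that of the promoter sum 0.45 ± 0.20 (limma adjusted p = 0.492). Without Vehicle replicate 4 these were 0.25 and 0.26, and with median of ratios 0.33 and 0.29. Of the 30 tested Irs1 regions 25 had a positive log2 difference, where 62.0% of all tested regions did, and the median was 0.39. The table labels 51 regions downstream of the coding exon as 3′ UTR exon, and 14 of the 15 tested were positive, with a median of 0.59 against 0.10 over all tested regions with that label. Whether these positions are exonic was not checked. These regions share a gene and their libraries, and neighbouring regions are not independent.

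The Irs1 region with the smallest p was chr1:82243364-82243648, 47768 bases from the start. It had 132, 118, 71.2 and 81.3 in Vehicle and 187, 146, 135 and 166 in iMSBmal1KO libraries. Every iMSBmal1KO library lay above every Vehicle library, with a log2 difference of 0.68 ± 0.24 (limma adjusted p = 0.445). The strongest Irs1 region away from the promoter, chr1:82283308-82283650, had 419, 429, 296 and 231 against 553, 391, 348 and 405, and overlapped. Over the 8 libraries the gene sums most like Irs1 among 5619 genes were those of Sgcd (r = 0.98), 4930512H18Rik (r = 0.98) and Yap1 (r = 0.98), given as a description of n = 8 libraries that differ in depth.

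**Figure D4:**
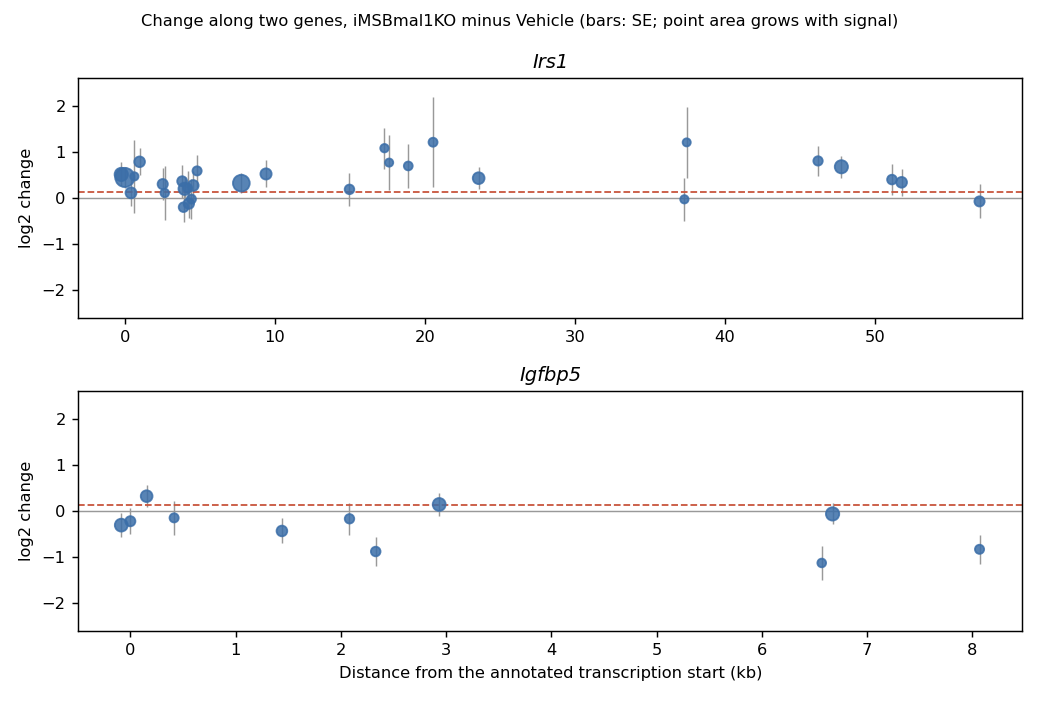
Log2 difference (iMSBmal1KO minus Vehicle) of each tested region of Irs1 and Igfbp5 by distance from the annotated start in kb, with bars for the SE, point area growing with signal and the median of all tested regions as a dashed line. Irs1 has the highest and Igfbp5 the lowest median of the 9 genes with a tested region. Most Irs1 regions lie above 0 (25 of 30, against 62.0% of all tested regions). Most Igfbp5 regions lie below 0 (9 of 11, against 38.0%), and no region passed the adjusted threshold.

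Irs2, the second adaptor, held the E-box nearest to its start and had the most accessible promoter per kb. Its strongest region, chr8:11008752-11009321, covered the whole window shown above. It had 766, 840, 700 and 394 in Vehicle and 825, 833, 601 and 616 in iMSBmal1KO libraries. Apart from the low Vehicle replicate 4 the groups covered the same range, and the log2 difference was 0.13 ± 0.22 (limma adjusted p = 0.860). The gene sum was 1014 ± 240 and 1047 ± 121, with a difference of 0.07 (limma adjusted p = 0.895). Promoters held 68.5% of the Irs2 signal. A log2 difference of 0.07 in the gene sum became -0.12 without Vehicle replicate 4.

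Pik3r1 encodes the p85 alpha regulatory subunit that links the IRS proteins to phosphoinositide 3-kinase. Its promoter region chr13:101767763-101768823, the longest of the promoter regions named here, had a signal of 833 ± 129 in Vehicle and 889 ± 109 in iMSBmal1KO libraries. The gene sum was 1735 ± 268 and 1814 ± 207, a log2 difference of 0.07 (SE 0.15; limma adjusted p = 0.877). Of its 35 tested regions 20 were positive and 15 negative. A weaker region, chr13:101718852-101719178 in intron 2, had 22.4, 78.1, 12.7 and 12.5 in Vehicle and 158, 20.9, 32.2 and 21.3 in iMSBmal1KO libraries. As at Igf1 and Akt1, iMSBmal1KO replicate 1 and Vehicle replicate 2 were the highest of their groups there.

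The kinase genes differed from each other in promoter accessibility. Akt2, the AKT kinase tied most closely to insulin-stimulated glucose uptake, had 3 strong starts. The region chr7:27607604-27608162 had 1319 ± 63.9 in iMSBmal1KO and 1367 ± 274 in Vehicle libraries, at the percentile 99.6 of all tested regions. The other starts, chr7:27591516-27592216 and chr7:27605689-27605942, had 411 ± 73.8 and 227 ± 23.6 in Vehicle and 464 ± 64.7 and 258 ± 35.0 in iMSBmal1KO libraries. Promoters held 85.9% of the Akt2 signal, the highest share of the 9 genes with a tested region. The Akt2 gene sum was 3046, 2699, 2630 and 2236 in Vehicle and 2733, 2974, 2547 and 2815 in iMSBmal1KO libraries, a log2 difference of 0.07 (95% interval -0.21 to 0.35; limma adjusted p = 0.866).

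Akt1, the widely expressed AKT kinase, had weak promoter regions. Its promoter sum was 165, 151, 167 and 194 in Vehicle and 197, 130, 97.8 and 128 in iMSBmal1KO libraries. Those of iMSBmal1KO replicates 2 to 4 were below every Vehicle library and that of replicate 1 above them, with a log2 difference of -0.33 ± 0.21 (limma adjusted p = 0.542). This was -0.52 without iMSBmal1KO replicate 1, -0.18 without iMSBmal1KO replicate 3 and -0.55 with loess scaling. The gene sum was 792, 888, 707 and 563 in Vehicle and 1222, 616, 589 and 603 in iMSBmal1KO libraries, so that replicate 1 stood apart, and the log2 difference was -0.02 (limma adjusted p = 0.983). Without that library it was -0.27. Much of this lay in chr12:112667728-112667965 in intron 2, with 169, 253, 109 and 116 in Vehicle and 443, 88.6, 113 and 70.2 in iMSBmal1KO libraries. That region had a within-group SD of 0.93, at the percentile 99.3 of the regions with a mean signal of at least 50.

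**Figure D5:**
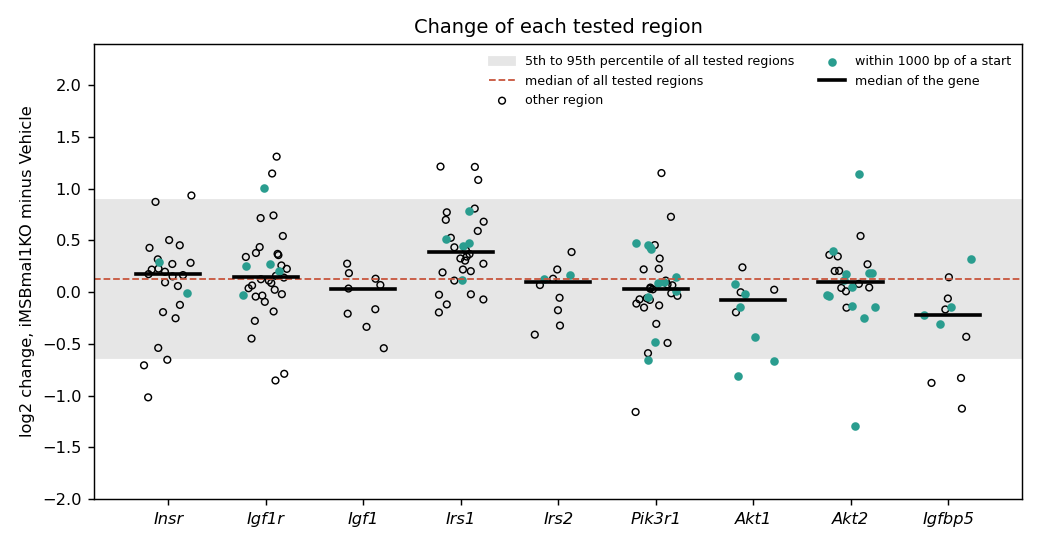
Log2 difference (iMSBmal1KO minus Vehicle) of the 188 tested regions by gene. Filled points lie within 1000 bases of a start, bars are gene medians, the dashed line is the median of all tested regions and the grey band their percentiles 5 to 95. Irs1 has the highest median, 0.39, and Igfbp5 the lowest, -0.22, and the range over all members is -1.29 to 1.31.

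By the section of the gene, the median log2 difference was 0.12 at the 35 tested regions labelled TSS, 0.07 at 109 intron regions, 0.16 at 14 coding exon regions and 0.01 at 10 regions labelled 5′ UTR exon. The same sections had medians of 0.17, 0.10, 0.06 and 0.08 over all tested regions. The 17 regions labelled 3′ UTR exon had 0.53, of which 15 belonged to Irs1. At the 3 tested regions labelled TTS (transcript end) the median was -0.07, against 0.06 over all tested regions with that label.

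Of 41 further genes of the pathway, 39 had regions, and 0 of their 340 tested regions passed the adjusted threshold, where 0.0881% of all regions did. Of these 340, 26 were higher and 5 lower at an unadjusted p under 0.05, where 6.59% and 2.63% of all regions were. Igf2bp2, with 10 tested regions, held 5 of the 26, and Sh2b2, with 7, held 3. Neither held any of the lower ones. The list was drawn up with earlier results of these data known, so its leading genes are given as a description only. The smallest adjusted p was at the promoter of Igf2bp2, which encodes an RNA-binding protein of Igf2 transcripts. The region chr16:22121288-22121418 had 18.1, 17.5, 13.3 and 12.5 in Vehicle and 39.4, 29.3, 50.1 and 37.6 in iMSBmal1KO libraries. The groups were apart, with a log2 difference of 1.29 ± 0.29 (limma adjusted p = 0.134). Its gene sum differed by 0.62 (limma adjusted p = 0.282) and that of Sh2b2, an adaptor of the insulin receptor, by 0.53 (limma adjusted p = 0.345).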

How the data were processed

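ATAC-seq was measured in 8 libraries, 4 per group, and groups were taken from the treatment labels. The authors deposited a table of regions with a signal per library, never negative. Between 98.3% and 99.8% of non-zero values were whole multiples, within 0.02 reads, of 1 step per library, so signal was read as counts divided by a factor. The submitters' processing notes name Partek, Bowtie2, MACS2, DESeq2 and the builds mm10 and GRCm39, with no roles. The table names no build. All 10 genes overlapped their RefSeq positions in GRCm38.p6, as 99.9% of matched genes did, and coordinates are given in it, counted from 1.

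Regions, gene sums and promoter sums (within 1000 bases of a start) were each fitted with limma-trend (limma 3.58.1, R 4.3.3) with robust moderation on log2(signal + 1), with group as the only term, and Benjamini-Hochberg adjustment over all features, threshold 0.05. Features needed 10 reads at the depth of the median library in at least 4 libraries and 15 reads in total. The median tested member region held 7 reads in the shallowest and 56.0 in the deepest library. The design named a count test for raw counts. It was not used, because the deposited values are scaled. Alternatives were other scalings, pseudocounts, filters, windows, merged regions, voom, a replicate block and leaving out each library.

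The named items were, for each gene, regions past the threshold, the strongest tested promoter region and the region with the smallest p, and, for likeness, the gene with the largest difference of gene sum. Strong distal regions, regions of wide spread and other regions were chosen after their values were seen. The genes and lists were chosen with earlier results of these data known.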

Additional observations from a re-analysis of the deposited data

Results flagged for a closer look

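Of 76 group values examined, 3 held a library farther from the other 3 than Dixon's 95% critical value for a group of 4 allows (the gap to the nearest library over the group's range). Chance gives about 1 in 20, here 3.8. The Akt1 gene sum was 1222 in iMSBmal1KO replicate 1 and 589 to 616 in the other iMSBmal1KO libraries. The Igf1 intron 4 region starting at 87927331 had a signal of 18.5 in Vehicle replicate 2 and 7.63 to 9.38 in the other Vehicle libraries. The Igfbp5 intron 1 region starting at 72871810 had 46.9 in Vehicle replicate 4 and 28.8 to 31.9 in the other Vehicle libraries.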

How the results depend on the processing

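The counts of 0 regions, gene sums and promoter sums past the threshold, and 0 for the further pathway genes, held in every alternative run, and the smallest adjusted p in any was 0.151, 0.177, 0.101 and 0.0722. The members' median of 0.11 stayed between -0.00 and 0.21. The edgeR alternative was not run, since not all values were whole reads. Of 693 comparisons of 38 named values with an alternative, 630 kept their sign and 63 did not, and 0 passed the threshold. For 18 of the 38 named values the sign held throughout. Among them were the Irs1 gene and promoter sums, the Igfbp5 gene sum and the promoter sums of Akt1 and Igf1r. The Igf1r promoter sum kept its sign only narrowly, from 0.23 to 0.0067 with a window of 500 bases and 0.019 with loess. With TMM scaling the sign turned for the Akt1 region starting at 112675457 (-0.037), the gene sums of Akt2 (-0.046), Igf1r (-0.051), Insr (-0.0053), Irs2 (-0.039) and Pik3r1 (-0.044), the promoter sums of Akt2 (-0.11), Igf1 (-0.063), Irs2 (-0.015) and Pik3r1 (-0.057) and the Pik3r1 region starting at 101767763 (-0.021). With median of ratios the same values were -0.035, -0.046, -0.050, -0.0050, -0.039, -0.044, -0.12, -0.070, -0.022, -0.064 and -0.019. With loess scaling they were -0.067 for the Akt1 region, -0.037 and -0.0044 for the gene sums of Irs2 and Pik3r1, -0.036, -0.021 and -0.015 for the promoter sums of Igf1, Irs2 and Pik3r1, and -0.0082 for the Pik3r1 region. With total signal the Akt2 promoter sum was -0.014. These scalings moved the median of all regions from 0.12 to 0.01 (median of ratios, TMM and loess) or 0.07 (total signal). Leaving out each library gave ranges across 0 for the gene sums of Akt1 (-0.27 to 0.080), Akt2 (-0.012 to 0.14), Igf1 (-0.62 to 0.20), Igf1r (-0.026 to 0.14), Igf2 (-0.88 to 0.0032), Irs2 (-0.12 to 0.16) and Pik3r1 (-0.015 to 0.16), for the promoter sums of Akt2 (-0.031 to 0.11), Igf1 (-0.28 to 0.39), Igf2 (-0.88 to 0.0032), Igfbp5 (-0.23 to 0.052), Insr (-0.062 to 0.073), Irs2 (-0.100 to 0.26) and Pik3r1 (-0.0032 to 0.18), and for the regions starting at 112675457 of Akt1 (-0.22 to 0.42), 27607604 of Akt2 (-0.11 to 0.097), 3279097 of Insr (-0.082 to 0.072) and 11008752 of Irs2 (-0.11 to 0.25). The cause was not tested. Over all 124901 regions the count past the threshold was 110, and it was 279 with median of ratios, 281 with TMM, 342 with loess and with voom, 195 with no filter and 32 to 281 with 1 library left out.

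Whether the replicate numbers pair the libraries is not given by the labels. Correlations between same-numbered libraries, as deviations from the group mean, were -0.06, 0.14, 0.02 and 0.02. Those between libraries of different numbers ran from -0.19 to 0.25, and 4 libraries per group are too few to decide it. With the replicate number as a block 0 member regions passed (smallest adjusted p 0.339), and the counts over all features were 100 for regions, 116 against 29 for gene sums and 116 against 14 for promoter sums.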

Other observations

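Values that no comparison above covers concern genes whose accessibility followed that of Igf1 over the libraries, chosen after the Igf1 values were seen. Among 5619 genes, the gene sums most like Igf1 were those of Rsph9 (r = 0.99), Cish (r = 0.97) and Gm48880 (r = 0.97), over n = 8 libraries and as the highest of all genes compared. Cish encodes an SH2 protein of the SOCS family that is induced by cytokines and growth hormone. Its sum was 1131, 1655, 458 and 913 in Vehicle and 1819, 544, 703 and 366 in iMSBmal1KO libraries. As at Igf1, iMSBmal1KO replicate 1 was the highest and iMSBmal1KO replicate 4 and Vehicle replicate 3 were the lowest. Without iMSBmal1KO replicate 1 and Vehicle replicate 3 the correlation with Igf1 was 0.99 for Cish, 0.98 for Rsph9 and 0.95 for Gm48880.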
